A study of Mus musculus with 46 samples.

Results

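The urea cycle and a group of enzymes that break down amino acids were followed in mouse liver after topical zinc oxide sunscreen. Of 10 genes listed by name, 8 were matched to a probe set that carries that gene symbol alone, among 19938 genes measured in this way on the array. The 8 are Cps1, Nags, Otc, Asl and Arg1 of the urea cycle, and Tdo2, Hal and Hpd of amino acid breakdown. Each of the 8 had 1 probe set. Ass1 was represented by 2 probe sets that it shares with Gm5424 and Gls2 was not matched in the probe table used here, so no values are given for them.

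Hepatocytes turn toxic ammonia into urea. Cps1 makes carbamoyl phosphate in the mitochondrion and depends on N-acetylglutamate, the product of Nags. Otc joins carbamoyl phosphate to ornithine to form citrulline, Ass1 and Asl convert citrulline to arginine in the cytosol, and Arg1 splits arginine into urea and ornithine. Tdo2 opens the ring of tryptophan, Hal removes the amino group of histidine, and Hpd acts in the breakdown of tyrosine. Most of these genes are highly transcribed in hepatocytes, and several are known targets of glucocorticoids, glucagon and C/EBP factors.

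RNA from the livers of 46 hairless SKH:QS mice was measured on 1 whole-transcript array per mouse, as log2 intensities. A virgin experiment and a pregnant experiment each had 4 arms: untreated, sunscreen formulation without zinc oxide particles, formulation with larger particles (micro), and formulation with nanoparticles (nano), the particles being enriched in the isotope 68Zn. Virgin arms had 6 mice each, and the pregnant arms had 5 untreated, 6 formulation, 5 micro and 6 nano mice, all at about 17 days of gestation at the end. Sunscreen was put on the skin 6 times over 4 days and livers were taken on day 5. The mice were housed singly and, per the protocol, fitted with collars against licking; whether untreated mice wore them is not said separately. Ages are not given in the labels used here.

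The 2 experiments were run apart, so level differences between them and pregnancy cannot be told apart. Array medians were 4.66 to 4.90 in the virgin experiment and 3.98 to 4.12 in the pregnant experiment. Alb and the 8 other hepatocyte markers measured had a mean log2 intensity per array of 12.98 to 13.11 in virgin livers and 12.57 to 12.76 in pregnant livers. In virgin mice the interquartile range of an array, a measure of how widely its values spread, was 2.83 ± 0.05 (SD, n = 6) with formulation and 2.97 ± 0.07 (SD, n = 6) untreated, and every formulation array lay below every untreated array (two-sided exact permutation test, p = 0.00216). On the first principal component of the pregnant experiment, which held 21.8% of the variance, micro replicates 3 and 4 lay at -47.1 and -31.2 and the other arrays at -12.5 to 19.5.

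Promoter sequence is shown for Otc, Hal and Tdo2, the members that passed a test below. Each run is the 250 bases before the start of the RefSeq gene (GRCm38.p6), read 5′ to 3′ along the gene's own strand, and capitals mark motif letters found by search. Otc lies at chrX:10252055-10252304 on the plus strand, Hal at chr10:93488518-93488767 on the plus strand and Tdo2 at chr3:81975729-81975978 on the minus strand.
Otc: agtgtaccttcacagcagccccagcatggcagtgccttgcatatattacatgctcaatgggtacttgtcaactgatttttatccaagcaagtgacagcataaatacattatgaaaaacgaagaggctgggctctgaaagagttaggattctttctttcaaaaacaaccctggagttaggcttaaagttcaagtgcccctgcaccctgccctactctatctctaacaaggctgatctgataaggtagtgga
Hal: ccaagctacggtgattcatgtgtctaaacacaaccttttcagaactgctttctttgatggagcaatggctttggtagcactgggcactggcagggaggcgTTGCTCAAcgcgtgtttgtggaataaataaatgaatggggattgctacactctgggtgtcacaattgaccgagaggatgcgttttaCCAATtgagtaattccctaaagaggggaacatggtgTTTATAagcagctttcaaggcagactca
Tdo2: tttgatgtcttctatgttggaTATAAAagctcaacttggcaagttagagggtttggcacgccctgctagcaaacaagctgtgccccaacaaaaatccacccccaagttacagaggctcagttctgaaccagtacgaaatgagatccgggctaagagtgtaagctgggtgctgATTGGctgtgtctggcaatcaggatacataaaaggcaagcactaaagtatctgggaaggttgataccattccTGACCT

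The motifs searched, on both strands, were TATAAA (a core promoter box), CCAAT, TTGCNNAA (C/EBP), AGAACA (a partial site of the glucocorticoid receptor), AGGTCA (a site of other nuclear receptors), GTTAAT (a partial site of HNF1) and CACGTG (E-box). The Hal window held TTGCNNAA 150 bases before the start, CCAAT 64 bases before it and TATAAA on the opposite strand 28 bases before it. The Tdo2 window held TATAAA 229 bases before the start, CCAAT on the opposite strand 78 bases before it and AGGTCA on the opposite strand 6 bases before it. No searched motif was found in the Otc window. Over 32851 RefSeq windows of the same length, TATAAA was in 12.4%, CCAAT in 33.8%, TTGCNNAA in 9.56%, AGAACA in 16.1%, AGGTCA in 14.0%, GTTAAT in 6.43% and CACGTG in 6.02%. Of the 8 members, 5 had a window in the table, and besides these 3 the Nags window held AGGTCA on the opposite strand 178 bases before the start.

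In virgin liver 1 of the 8 genes fell with the formulation: Otc, the mitochondrial enzyme that makes citrulline. Untreated virgin mice had Otc log2 intensities from 10.03 to 10.31 with a median of 10.15, and formulation mice ran from 9.15 to 9.85 with a median of 9.73. All 6 formulation mice lay below every untreated mouse. The change was -0.52 ± 0.09 on the log2 scale (SE; 95% interval -0.71 to -0.34), or 1.44-fold lower, with an adjusted p of 0.000315 (limma, Benjamini-Hochberg over 23410 probe sets). Across all probe sets 26.5% were called in this comparison and 15% were called lower, and 1 of 8 called (Otc) is not above these shares. Formulation arrays lay all below the untreated ones for 6.69% of probe sets and for 1 of 8 genes (Otc). That proportion of the 8 is above 6.69%, but it rests on 1 gene and the difference was not tested.

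Formulation replicate 5 had the lowest Otc value, 9.15, and without it the change was -0.43 and still called (adjusted p = 0.000441). In a fit that held the array's interquartile range as a covariate, the change was -0.35 and no longer called (adjusted p = 0.175, limma). That covariate itself differs between the arms. With the first principal component of 14 clock genes as a covariate, a setting chosen after seeing the data, the Otc change was -0.41 and stayed called (adjusted p = 0.011). Of 20 alternatives, 19 kept the call.

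Otc was higher with micro than with formulation alone. The 6 virgin micro mice ran from 9.86 to 10.13, with a median of 10.01, and all lay above the 6 formulation mice. The change was 0.35 ± 0.09 (SE; 95% interval 0.17 to 0.54; adjusted p = 0.0189, limma), in a comparison where 6.83% of probe sets were called, 5.14% were called higher and 2.9% were higher without overlap. The call was lost when the 2 arms were fitted alone (adjusted p = 0.0516) and with the interquartile range as a covariate (0.25, adjusted p = 0.250). This comparison uses the same 6 formulation mice as the one against untreated mice.

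With nano, virgin Otc values ran from 9.76 to 10.09, with a median of 9.97. Nano minus formulation was 0.30 ± 0.09 and missed the threshold (adjusted p = 0.0585, limma), with 5 of 6 nano mice above every formulation mouse and 0 of 8 genes called where 3.25% of probe sets were. Of the 8, 2 had an unadjusted p under 0.05. Nano minus formulation was called for Otc with dim probe sets left out (adjusted p = 0.0377), with trend and robust moderation (0.0321), with the clock component as a covariate (0.46, adjusted p = 0.0432), and without formulation replicate 4 or nano replicate 3. Against untreated mice, Otc differed by -0.17 with micro (95% interval -0.36 to 0.01) and by -0.22 with nano (95% interval -0.40 to -0.04), and neither was called. The order of virgin arm means was untreated at 10.16, micro at 9.99, nano at 9.94 and formulation at 9.64. No neighbours in that order differed past the threshold.

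**Figure D1:**
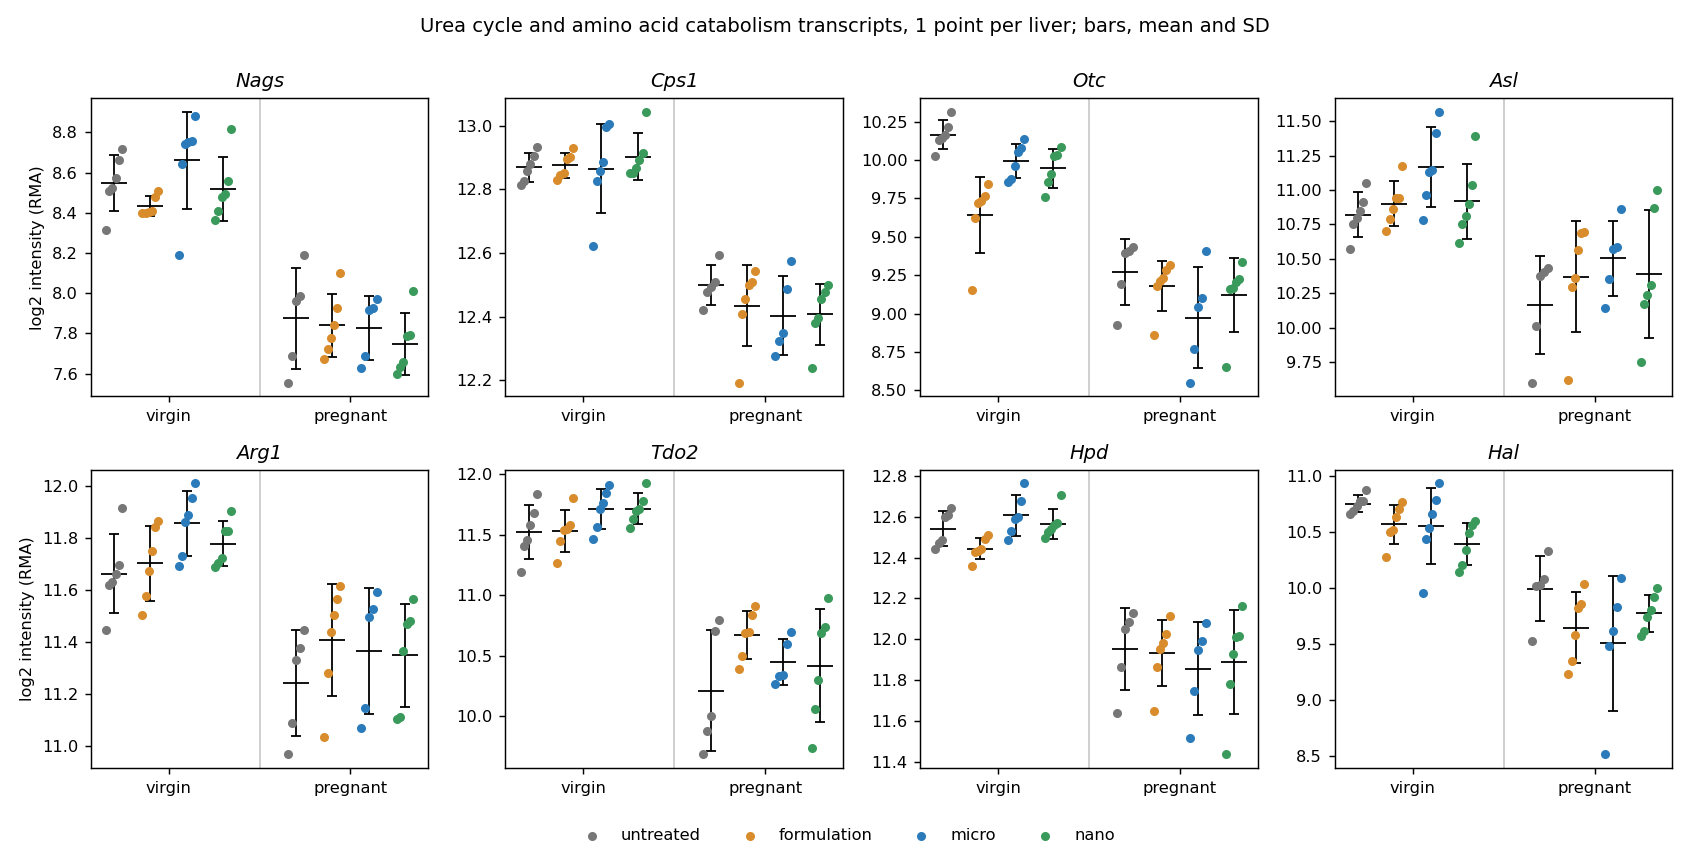
Deposited log2 intensity of the 8 genes in each mouse (points) by arm, with mean and SD (bars), for the virgin and the pregnant experiment. Virgin Otc sits at 9.15 to 9.85 with formulation and at 10.03 to 10.31 untreated, without overlap.

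In pregnant liver no arm changed Otc past the threshold. The 5 untreated pregnant mice had Otc values of 9.19, 9.43, 9.39, 8.92 and 9.41. Formulation values ran from 8.86 to 9.32 with a median of 9.22, nano values from 8.65 to 9.33 with a median of 9.19, and the 5 micro values were 9.10, 9.41, 8.77, 8.55 and 9.04. Each treated arm overlapped the untreated mice. The changes were -0.09 ± 0.14 with formulation, -0.29 ± 0.14 with micro and -0.15 ± 0.14 with nano (SE). Without micro replicates 3 and 4 the micro change was -0.09.

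The difference between the experiments in the Otc response to formulation was tested directly. The pregnant response minus the virgin response was 0.43 ± 0.16 (SE; 95% interval 0.10 to 0.77) with an adjusted p of 0.325 in limma, so a difference was not shown. Without virgin formulation replicate 5 it was 0.34. Of the 8 genes, 0 were called in the formulation interaction, where 0.145% of probe sets were, and 1 had an unadjusted p under 0.05. In the micro and nano interactions 0 of 8 were called, against 0.047% and 0.0427% of probe sets, and 0 had an unadjusted p under 0.05.

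The rest of the urea cycle did not pass the test with any arm in virgin liver. Cps1, the entry enzyme, held a narrow range: 12.81 to 12.93 untreated, 12.83 to 12.93 with formulation, 12.62 to 13.01 with micro and 12.85 to 13.04 with nano. Its changes against untreated were 0.01 with formulation (95% interval -0.12 to 0.13), -0.00 with micro (-0.13 to 0.12) and 0.03 with nano (-0.09 to 0.16). The 3 intervals stay within 0.16 of 0 on the log2 scale.

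Asl, which releases arginine, had untreated virgin values from 10.57 to 11.05 and micro values from 10.78 to 11.57. The micro change was 0.35 ± 0.12 (SE; 95% interval 0.09 to 0.60), with 4 of 6 mice above every untreated mouse, and was not called (adjusted p = 0.101, limma). Arg1, the last step, was 0.19 ± 0.08 with micro (adjusted p = 0.149). In this comparison 0 of 8 genes were called, where 4.43% of probe sets were, and 2 had an unadjusted p under 0.05. Nags, the maker of the Cps1 activator, was -0.12 with formulation, 0.11 with micro and -0.03 with nano.

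For micro against formulation, 4 of 8 genes had an unadjusted p under 0.05 and 1 (Otc) was called, where 6.83% of probe sets were called. Nags and Hpd were not called. Nags was 0.23 ± 0.09 (adjusted p = 0.138, limma), and without micro replicate 1, which at 8.19 lay below the other micro mice, it was 0.32 and called (adjusted p = 0.0153). Hpd was 0.16 ± 0.06 (adjusted p = 0.0917), and it was called with trend and robust moderation (adjusted p = 0.0246, limma). In nano against micro 0 of 8 genes were called and 0 had an unadjusted p under 0.05, where 0% of all probe sets were called.

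In pregnant liver no urea cycle gene passed the test either. The log2 change of Cps1 was -0.06, -0.10 and -0.09 with formulation, micro and nano. That of Asl was 0.21, 0.34 and 0.22, and that of Arg1 was 0.16, 0.12 and 0.11. Nags was at -0.03, -0.05 and -0.13. Untreated pregnant Asl values were 10.02, 10.40, 10.38, 9.60 and 10.43, and formulation values ran from 9.62 to 10.70. The lowest formulation value, 9.62, was in the same range as the lowest untreated value.

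**Figure D2:**
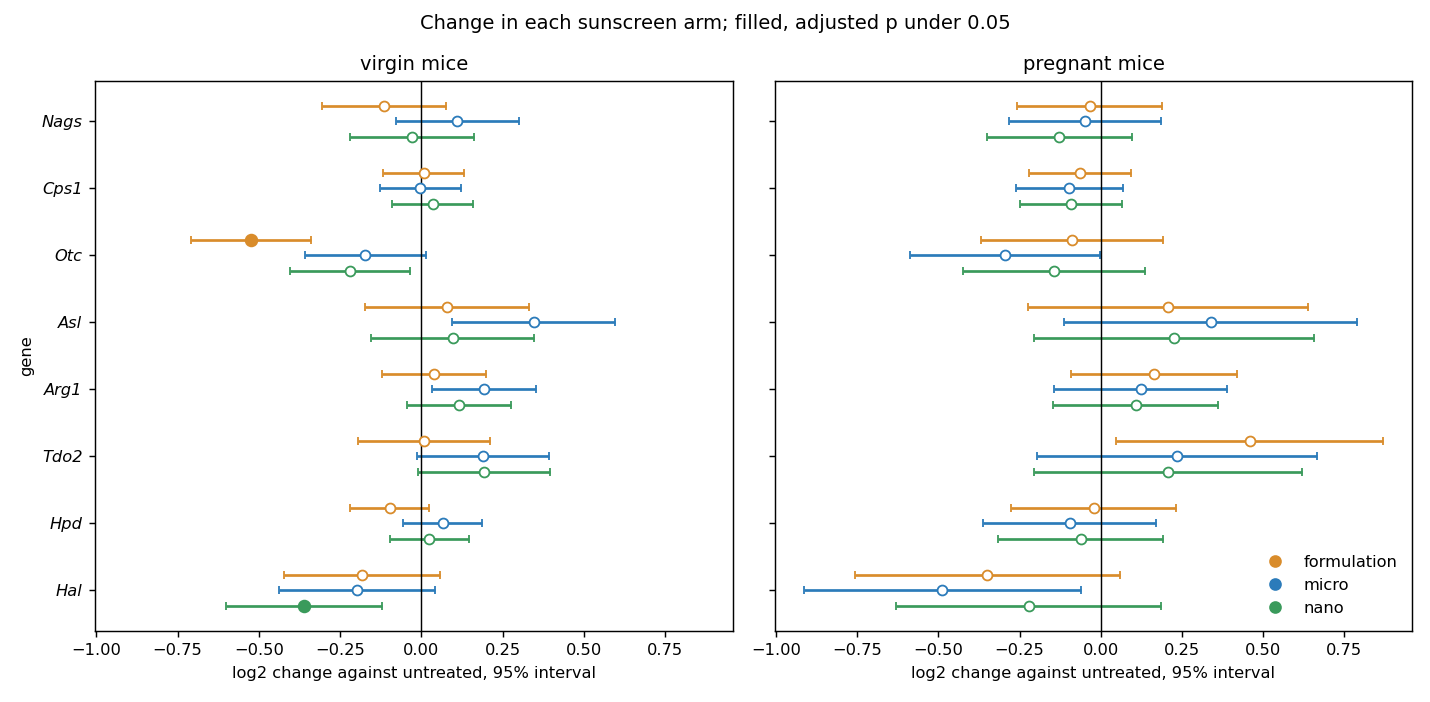
Log2 change with its 95% interval for each of the 8 genes in the comparisons of each arm with untreated mice, by experiment; filled points were called. Virgin Otc with formulation, at -0.52, and virgin Hal with nano, at -0.36, are the called changes.

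Hal, the first enzyme of histidine breakdown, was lower with nano in virgin mice. Untreated values ran from 10.67 to 10.88 with a median of 10.76, and nano values from 10.15 to 10.60 with a median of 10.41. All 6 nano mice lay below every untreated mouse. The change was -0.36 ± 0.12 (SE; 95% interval -0.60 to -0.12), 1.29-fold lower, with an adjusted p of 0.0422 (limma). In this comparison, where Hal was the 1 gene of 8 called, 11.9% of probe sets were called, 7.18% were called lower and 3.22% lay lower without overlap.

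The Hal call was lost in 12 of 20 alternatives, among them a further quantile normalization (-0.32, adjusted p = 0.0681) and the removal of any 1 of nano replicates 4, 5 and 6 or of untreated replicates 1, 3, 4, 5 and 6. With the clock component as a covariate, chosen after seeing the data, the sign turned and Hal was at 0.15 (adjusted p = 0.867). That component lay at -3.22 to -2.17 in untreated virgin mice, at -2.71 to 1.20 with formulation, at -0.38 to 4.10 with micro and at 1.04 to 2.46 with nano, so untreated and nano mice did not overlap in it and its part cannot be told apart from treatment. In the same comparison 5 of 13 neutrophil markers were higher and 9 of 12 endothelial markers were lower, where 4.77% of all probe sets were higher and 7.18% lower, and their part was not tested.

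Hal with the other virgin arms was -0.18 ± 0.12 with formulation and -0.20 ± 0.12 with micro, and micro mice spread from 9.96 to 10.94. Nano minus formulation was -0.18 (95% interval -0.42 to 0.06), so a difference between nano and formulation was not shown. In pregnant liver Hal was -0.35 ± 0.20 with formulation, -0.49 ± 0.21 with micro and -0.22 ± 0.20 with nano, none called. Micro replicate 3 had the lowest Hal value of all, 8.52, beside 9.48, 10.09, 9.62 and 9.84 in the other micro mice, and without it the change was -0.24. Without micro replicates 3 and 4 it was -0.20.

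Tdo2, the first enzyme of tryptophan breakdown, did not pass the test with any arm. In virgin mice its values ran from 11.19 to 11.83 untreated and from 11.56 to 11.92 with nano, and its changes were 0.01, 0.19 and 0.19 with formulation, micro and nano. In pregnant mice the untreated values were 10.00, 10.79, 10.70, 9.88 and 9.68 and formulation values ran from 10.39 to 10.91. The formulation change was 0.46 ± 0.20 (SE; 95% interval 0.05 to 0.87; adjusted p = 0.372, limma). For Hpd, of tyrosine breakdown, the virgin changes were -0.10, 0.07 and 0.02 with formulation, micro and nano, and the pregnant changes were -0.02, -0.10 and -0.06. None was called.

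Over the 3 pregnant arms 0 of 8 genes were called against untreated mice. The background was 0.0598%, 0.107% and 0.0214% of probe sets with formulation, micro and nano, and 1, 2 and 0 of the 8 genes had an unadjusted p under 0.05 (limma). In the 3 comparisons between pregnant treated arms 0 of 8 genes and 0% of probe sets were called, and 0 of 8 had an unadjusted p under 0.05.

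Other genes of nitrogen and amino acid metabolism were read from lists chosen by pathway, in which 79 genes were measured. With formulation in virgin mice 40 of the 79 passed, 5 higher and 35 lower (50.6%), and the median change was -0.18. The array as a whole had 26.5% called, with 11.5% higher and 15% lower, and a median of 0.03. All comparisons of virgin arms with untreated share the same 6 untreated mice.

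Breakdown of the branched-chain amino acids leucine, isoleucine and valine was the list with the most called genes: 0 rose and 16 of 19 fell, with a median of -0.31. Acadsb fell by 0.66, Acad8 by 0.56, Hibch by 0.51, Dbt by 0.50, Acat1 by 0.49 and Mccc1 by 0.43 on the log2 scale. Acadsb and Acad8 are acyl-CoA dehydrogenases of the isoleucine and valine routes, Hibch acts later in the valine route, Dbt is the core subunit of the branched-chain keto acid dehydrogenase, Acat1 is a thiolase that acts at the end of the isoleucine route, and Mccc1 is a subunit of the leucine-route carboxylase.

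In aromatic and histidine breakdown 1 gene rose and 8 of 16 fell. Tat, the glucocorticoid-induced tyrosine aminotransferase, rose by 0.51. Aadat and Afmid, of the kynurenine route that Tdo2 starts, fell by 0.47 and 0.45, and Kmo of the same route fell by 0.29. Amdhd1, which acts after Hal, fell by 0.44, and Gstz1, the maleylacetoacetate isomerase of tyrosine breakdown, fell by 0.30. In the same comparison Tdo2 was at 0.01 and Hal at -0.18, neither called.

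In the nitrogen list 2 genes rose and 3 of 20 fell, or 25% called, close to the 26.5% of all probe sets, so the count is no result about this list. The amino acid carriers Slc38a2 and Slc7a2 rose by 0.77 and 0.53. Car5a, which supplies bicarbonate to Cps1, Sirt5, which removes acyl groups from Cps1, and Glud1, which releases ammonia from glutamate, fell by 0.27, 0.27 and 0.26. In the list of other amino acids 2 rose and 8 of 24 fell: Amt of glycine cleavage fell by 0.42, Agxt2 by 0.40, Shmt2 by 0.33, Gcdh of lysine breakdown by 0.29 and Aldh7a1 by 0.25, and Cdo1, the cysteine dioxygenase, rose by 0.27.

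The list counts depended on the fit. With the interquartile range as a covariate the called genes were 2 of 19 for branched chains, 1 of 16 for aromatic and histidine, 0 of 20 for nitrogen and 0 of 24 for the others, while calls over all probe sets went from 6203 to 179. After a further quantile normalization they were 10, 6, 4 and 5, with 3971 calls over all probe sets, and with the clock component they were 10, 4, 2 and 3, with 2698.

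**Figure D3:**
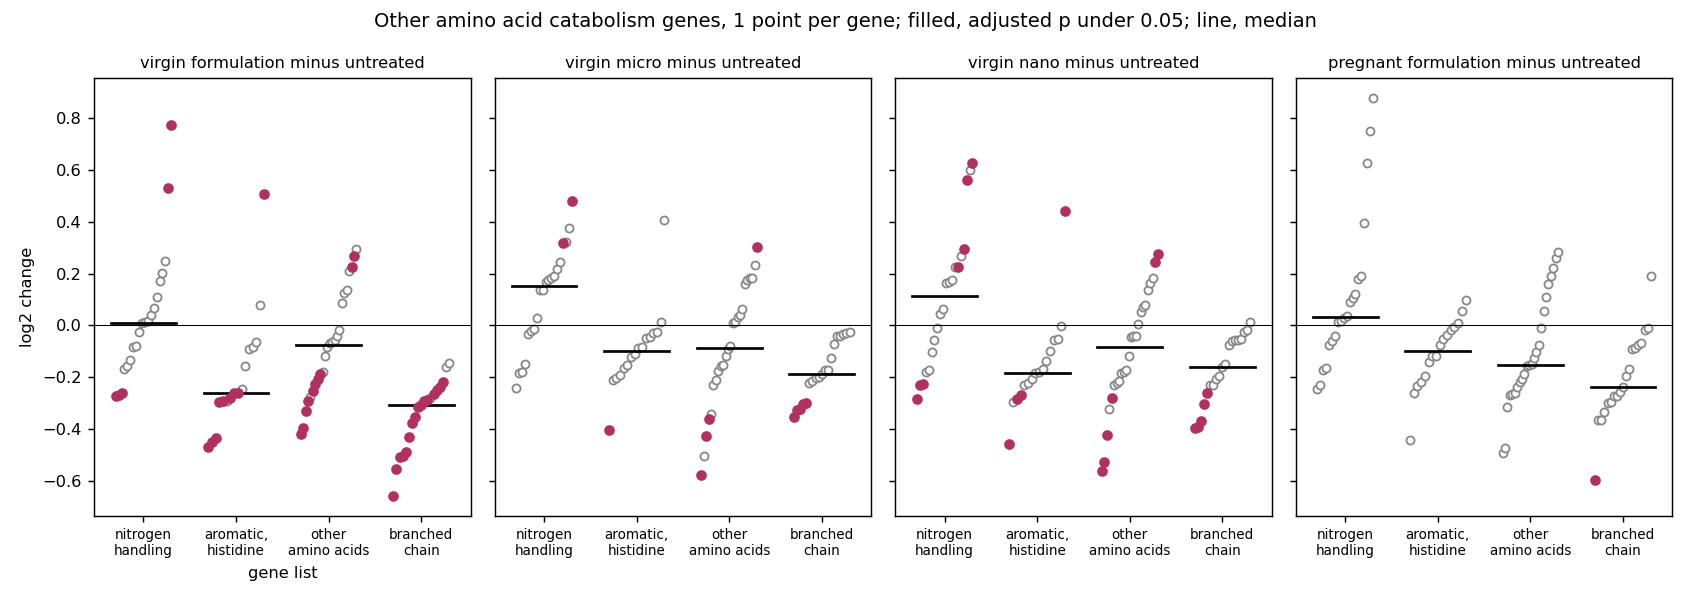
Log2 change of each gene (1 point) in the 4 amino acid lists, for the 3 virgin arms and pregnant formulation against untreated mice; filled points were called and the bar is the list's median. Branched-chain breakdown has 16 of 19 lower with formulation in virgin mice, where 15% of all probe sets were lower, and 1 of 19 in pregnant mice, where 0.0214% were lower.

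With micro in virgin mice 3 of the 79 rose and 9 fell, or 15.2% called beside 4.43% of all probe sets. With nano 7 rose and 15 fell, or 27.8% called beside 11.9%. With the clock component as a covariate 0 genes of the 4 lists were called in either arm, but the loss ran across the array: 12 of all probe sets were then called with micro and 4 with nano. Amdhd1 fell by 0.40 with micro and by 0.46 with nano, Amt by 0.58 and 0.56, Mccc1 by 0.30 and 0.39, and Acat1 by 0.35 and 0.26. Slc7a2 rose by 0.48 with micro and by 0.63 with nano, and with nano Asns, the asparagine synthetase, rose by 0.56 and Tat by 0.44. With nano Gldc, the glycine decarboxylase, fell by 0.53 and Agxt by 0.42.

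In pregnant mice 1 gene of the 79 passed in any arm against untreated. Of all probe sets 0.0598%, 0.107% and 0.0214% passed with formulation, micro and nano. In the formulation interaction 0 of 19 branched-chain genes were called, where 0.145% of probe sets were, and 1 had an unadjusted p under 0.05 (limma). A difference between the experiments was thus not shown for this list. Acat1 fell by 0.60 with formulation (SE 0.12; adjusted p = 0.0457, limma), where 0.0214% of all probe sets were called lower. The call was lost with the clock component as a covariate and with the replicate number as a block. In virgin mice the same gene fell by 0.49 with formulation. The pregnant response of Acat1 minus the virgin one was -0.11 ± 0.13 (SE; adjusted p = 0.840, limma), which misses the threshold.

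Regulators of these pathways were also read, 10 in all. Against untreated virgin mice 26.5% of all probe sets were called with formulation, 4.43% with micro and 11.9% with nano. With formulation in virgin mice Cebpb, a C/EBP factor induced by hormones and inflammation, rose by 0.88, and Ppargc1a, a coactivator induced in fasting, rose by 0.80. Creb3l3, a liver-enriched factor, fell by 0.41, and Nr3c1, the glucocorticoid receptor, fell by 0.27. Cebpb rose by 0.51 with micro and by 0.67 with nano. In pregnant mice 0 of 10 regulators were called with formulation, where 0.0598% of probe sets were, so the count is no result about regulators. Cebpb was 0.46 ± 0.19 there (adjusted p = 0.346, limma), and no difference from virgin mice is read from these values.

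Markers of other liver cells passed the test in the comparison of virgin formulation with untreated mice too. With formulation 6 of 13 neutrophil markers were higher and 0 lower, with a mean level per mouse of 4.24 to 4.98 beside 4.06 to 4.20 untreated. Some of these markers were dim. Over virgin mice they ran from 2.84 for Cxcr2 (percentile 9.36 of all probe sets with a symbol) to 5.78 for S100a9 (percentile 61.8). Endothelial markers were lower in 8 of 12 and higher in 0, with levels of 6.15 to 6.53 beside 6.59 to 6.79. Over all probe sets 11.5% were higher and 15% lower in this comparison. Of 9 hepatocyte markers 1 was higher and 0 lower, with levels of 13.02 to 13.06 beside 12.98 to 13.03. Fewer cells of a type and less RNA per cell cannot be told apart in whole liver, and the part of other cells in the Otc change was not tested. The mean level per mouse of 10 acute-phase (inflammation response) genes was read too. In virgin mice it was 9.45 to 10.16 untreated, 10.45 to 12.07 with formulation, 10.91 to 12.09 with micro and 10.67 to 11.41 with nano. In pregnant mice it was 9.74 to 10.40 untreated, 11.22 to 12.02 with formulation, 11.37 to 12.45 with micro and 11.26 to 11.77 with nano. Its part in the amino acid changes was not tested.

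Within arms, the 8 genes tended to be high or low in the same mice. The correlation of deviations from arm means was positive for all 28 pairs in each experiment, with a median r of 0.52 in virgin and 0.47 in pregnant mice. Of 56 pairs tested, 17 of 28 virgin and 15 of 28 pregnant pairs passed after Benjamini-Hochberg adjustment of Pearson's r with 100000 permutations within arms, and 11 and 15 passed with Spearman's rho. The 8 genes were measured on the same array, so shared array quality enters each pair. Pairs of other genes were not tested, so the counts are not read as particular to the 8.

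Asl and Arg1, adjacent steps, correlated at r = 0.87 in 22 pregnant mice (rho 0.87; permutation adjusted p = 0.00056 for each; r = 0.82 without the 2 mice farthest from the median of Asl). Cps1 and Nags correlated at r = 0.80 in 24 virgin mice (rho 0.60; permutation adjusted p = 0.00653 and 0.0166; r = 0.58 without the 2 farthest). The lowest correlation was that of Otc with Asl in virgin mice, at r = 0.07 (rho 0.01; permutation adjusted p = 0.743 and 0.961).

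**Figure D4:**
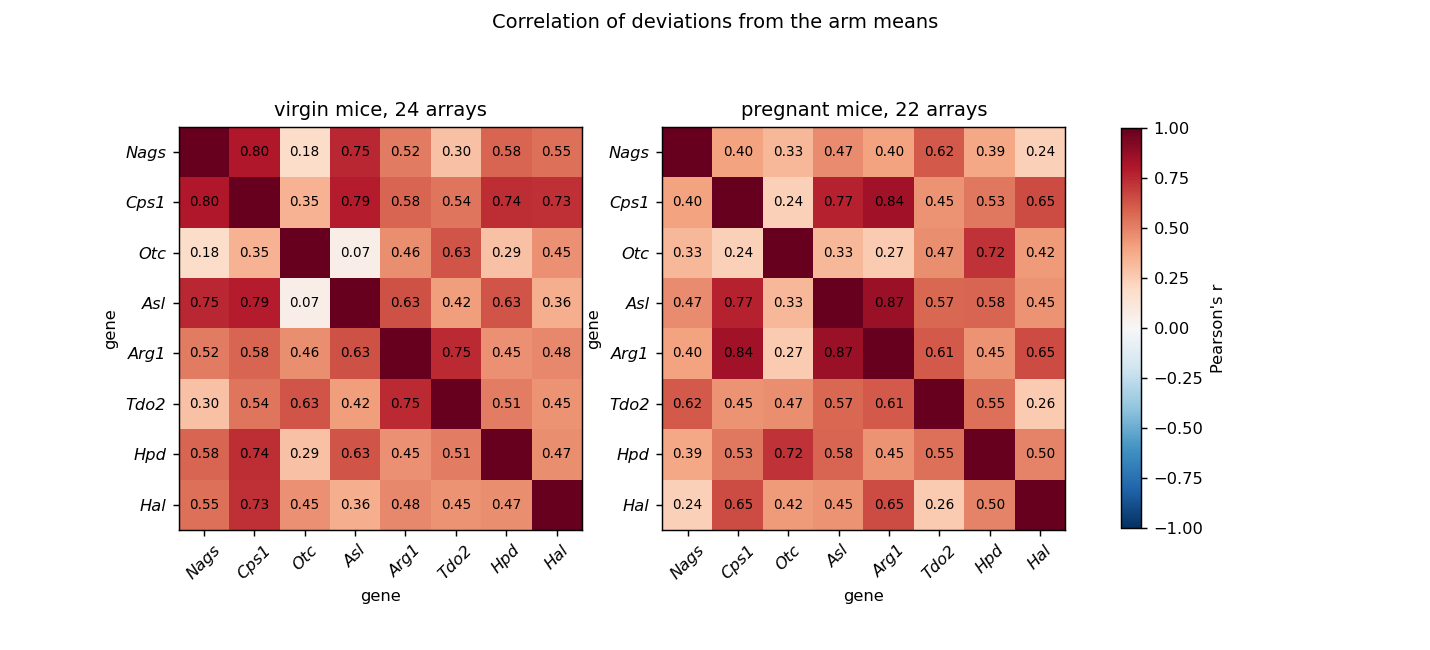
Pearson's r of deviations from arm means for each pair of the 8 genes, in 24 virgin and 22 pregnant mice. Every pair is above 0, and Otc with Asl in virgin mice is at 0.07.

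For likeness, deviations were taken from the mean of the whole experiment and not from arm means, so differences between arms enter. Outside the 8, the genes that ran closest to the mean of the 8 genes' deviations were ranked among 19930 genes. In virgin mice these were Aass at r = 0.87, Acmsd at 0.87, Kmo at 0.84, Slc25a15 at 0.83 and Slc6a13 at 0.81, over 24 mice. Aass and Kmo degrade lysine and kynurenine, Acmsd acts in the same tryptophan route, and Slc25a15 carries ornithine into the mitochondrion. In pregnant mice they were Ndrg2 at 0.90, Upb1 at 0.89, Cpn2 at 0.84, Acsm3 at 0.84 and Mtarc1 at 0.84, over 22 mice. These correlations describe the same arrays and carry no test.

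Between untreated pregnant and untreated virgin mice, experiment and pregnancy cannot be told apart on any scale. Because the 2 experiments may have been normalized separately, all arrays were first put on one distribution by joint quantile normalization. On that scale Tdo2 was the most different of the 8. Virgin values ran from 10.94 to 11.57 with a median of 11.29, and pregnant values were 10.16, 11.01, 10.93, 10.03 and 9.88, so that 4 of 5 lay below every virgin mouse. The difference was -0.89 ± 0.16 (SE; 95% interval -1.22 to -0.56; adjusted p = 4.88e-05, limma), or 1.85-fold lower.

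Otc was lower by 1.37-fold, at -0.46 ± 0.10 (SE; 95% interval -0.66 to -0.25; adjusted p = 0.000651, limma). Virgin Otc values ran from 9.82 to 10.05 on this scale, and pregnant values were 9.36, 9.64, 9.60, 9.06 and 9.63, all below every virgin mouse. Of the 8 genes 2 were called, both lower, where 31.8% of probe sets were called, 17.8% were called lower and 9.33% were lower without overlap. Without untreated pregnant replicate 2 the count was 4, and without replicate 3 it was 3. In this comparison 9 of 13 neutrophil markers were higher and 0 lower, where 14.0% of all probe sets were higher. Of 8 markers of periportal hepatocytes 3 were lower and 1 higher, with a median difference of -0.45. Of 11 pericentral markers 4 were lower and 0 higher, with a median of -0.22. The median of all probe sets was -0.02, and the part of these markers was not tested.

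These differences depend on the scale. As deposited, with a median over all probe sets of -0.61, Tdo2 was -1.31 and Otc -0.90 and 8 of 8 were called lower, where 90.5% of all probe sets were. With each array's median subtracted, Tdo2 was -0.61 (adjusted p = 0.0035), Otc was -0.20 (adjusted p = 0.238), and Cps1 at 0.33 and Arg1 at 0.28 were called higher, on a scale with calls in the higher direction for 27.3% of the array and in the lower for 12.2%. Relative to the median of all probe sets, Tdo2 was -0.87 after joint quantile normalization and -0.71 on each other scale, and Otc was -0.44 and -0.29.

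**Figure D5:**
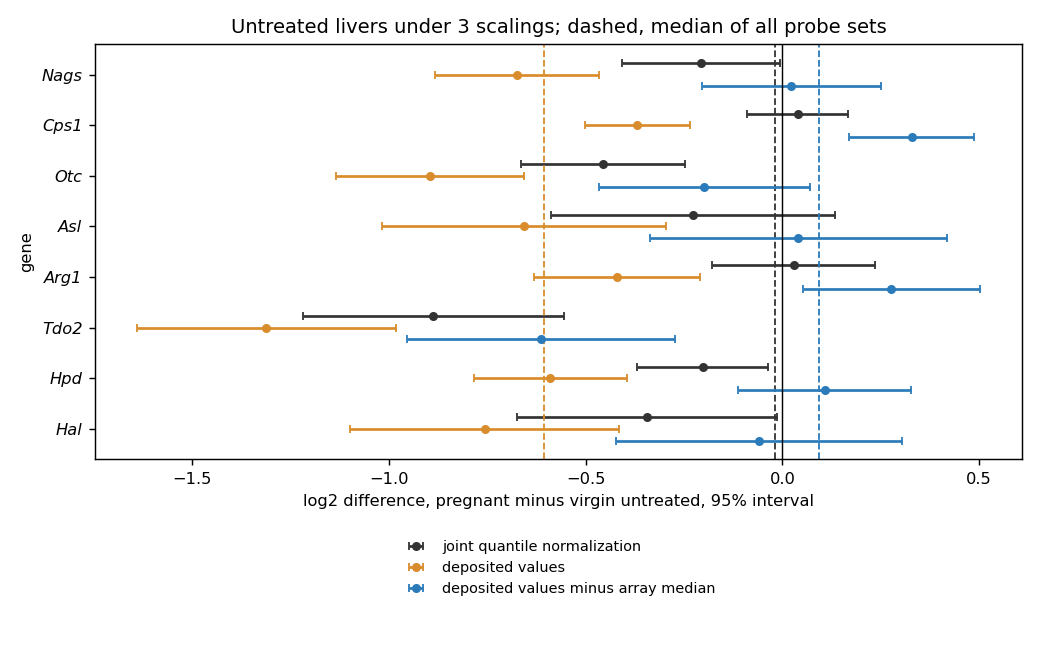
Difference between untreated pregnant and untreated virgin mice for the 8 genes on 3 scales, with 95% intervals; dashed lines mark the median of all probe sets on each scale. Tdo2 lies below 0 on all 3, and Cps1 is at 0.04, -0.37 and 0.33.

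The wider lists followed the scale in the same way. With joint quantile normalization 34 of the 79 genes were lower and 5 higher between pregnant and virgin untreated mice, with deposited values 74 and 1, and with medians subtracted 9 and 13. Over all probe sets the shares lower and higher were 17.8% and 14.0%, 90.5% and 0.824%, and 12.2% and 27.3% on these 3 scales. With joint quantile normalization Prodh, the proline dehydrogenase, fell by 1.19, Ppm1k by 0.96, Slc38a4 by 0.92, Csad by 0.75 and Acmsd by 0.70, and Gcsh, of glycine cleavage, rose by 0.71.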

How the data were processed

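Liver RNA of 46 mice was measured on 1 array each. The authors deposited log2 intensities from RMA (background correction, quantile normalization and a summary over probes); the submitters' processing notes name no version of it. The array medians differ between the experiments, so that separate normalization is likely but not stated. Probe sets with a symbol numbered 23410 of 35512, and 8 of 10 listed genes matched. Entrez identifiers were updated through a mouse gene table (GRCm38.p6), used for names alone. No columns (0) were left out.

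In R 4.3.3 with limma 3.58.1 each experiment was fitted with its 4 arms, a joint model of 8 groups gave interactions, and the untreated groups were compared after joint quantile normalization of the 46 arrays. Benjamini-Hochberg adjustment ran over 23410 probe sets, tests were two-sided, and an adjusted p under 0.05 counted as called. A gene is represented by its highest-mean probe set. The scripts were tested on simulated data. Correlations used 100000 permutations within arms.

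The members and lists were chosen with earlier results of these data known. Up to 6 called genes of each pathway list were named, by size of change, and 5 genes by likeness. Nothing says how the mice of a group are related, so p-values measure only the spread between them. Alternatives were a filter at the 40th percentile of mean signal, trend and robust moderation, array weights, further quantile normalization, compared groups alone, the replicate number as a block, the interquartile range as a covariate, a clock component as a covariate (chosen after seeing the data), other scalings and each replicate left out. The number of arrays limits the precision.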

Additional observations from a re-analysis of the deposited data

Results flagged for a closer look

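Of 64 groups of 5 or 6 mice tested for a mouse far from the others (the gap to the nearest mouse against the whole range, Dixon's 95% value), 7 had one, and chance flags about 1 in 20 groups. Otc accounted for 3 of the 7. Virgin formulation replicate 5 was at 9.15, beside a nearest mouse at 9.62. Pregnant formulation replicate 2 was at 8.86, with the nearest at 9.18, and pregnant nano replicate 1 was at 8.65, with the nearest at 9.16. All 3 were the lowest mouse of their arm.

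In virgin nano replicate 1, Cps1 was at 13.04 and Hpd at 12.71, the highest of that arm, with the nearest mice at 12.92 and 12.57. Nags in virgin micro replicate 1 was at 8.19, the lowest, with the nearest at 8.64. Asl in pregnant formulation replicate 1 was at 9.62, the lowest, with the nearest at 10.30. No interaction between the experiments was called for any of the 8 genes (0 of 24 tests).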

How the results depend on the processing

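With the interquartile range as a covariate the called members were 0 for virgin formulation minus untreated, 0 for virgin nano minus untreated and 0 for virgin micro minus formulation. With the clock component as a covariate they were 0 for virgin nano minus untreated (Hal at 0.15, of the opposite sign), 2 for virgin micro minus formulation and 1 for virgin nano minus formulation. Virgin nano minus untreated also gave 0 after a further quantile normalization and with the replicate block, and 0 to 1 with single replicates left out. Virgin micro minus formulation gave 0 with the compared groups alone, 2 with trend and robust moderation, and 1 to 2 with single replicates left out. Virgin nano minus formulation gave 1 with dim probe sets left out, 1 with trend and robust moderation, and 0 to 1 with single replicates left out. The cause was not tested. Untreated pregnant minus virgin gave 8 with deposited values and 2 to 4 with single replicates left out. With deposited values Arg1 was -0.42 and Cps1 -0.37, the opposite sign to joint normalization.

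Same-numbered mice correlated at -0.35 to 0.20 in virgin and -0.15 to 0.23 in pregnant mice. Their medians were -0.13 and 0.02, beside 0.04 and -0.01 for mice of different numbers. Above 0.1 were 1 of 36 virgin and 12 of 31 pregnant same-number pairs. These correlations show no strong pairing by number but cannot exclude one. With the replicate block the count of called members was 0 for virgin nano minus untreated and 1 for virgin formulation minus untreated. The alternative of another probe set of the same gene gave no value, since each member had 1. Signal over background is not given with these values.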
